A study of Mus musculus with 6 samples.

Results

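Foxo1, Foxo3 and Foxo4 and 27 genes known as Foxo targets were followed in long-term haematopoietic stem cells (LT-HSC) that lack Itpkb or carry it. The 30 genes were taken by symbol from the table of all genes, and all 30 were found there and are among the 12008 genes that passed the filter on low values. The cells came from bone marrow of C57BL/6 mice and were sorted as LSK (lineage-depleted, Sca-1 and Kit positive) CD34-CD150+CD48-Flk2- cells. One group of 3 libraries came from mice labelled IPTKB-/-, which carry an allele named Ms T-less that was induced with the mutagen ENU, and is written Itpkb-/- below. The other group of 3 libraries came from litter mate controls, the wild type (WT). No further allele, drug or treatment is named for either group, and the mice are described as age-matched without an age. Each library was a pool of 4 mice and of at least 10000 sorted cells, so the spread between libraries is a spread between pools, and the mutation is present in all cells of the animal.

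Foxo proteins are forkhead transcription factors that switch on genes of stress resistance, cell cycle arrest, autophagy and cell death. Growth factors act through PI3-kinase and Akt, which phosphorylates Foxo proteins so that they leave the nucleus and their targets are transcribed less. Itpkb encodes a kinase that makes inositol tetrakisphosphate, a soluble molecule known in blood cells to compete with the membrane lipid that recruits Akt. In mouse LT-HSC, Foxo factors are known to keep reactive oxygen low and the cells quiescent.

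Values are read counts scaled for library size (normalized CPM), and differences are log2(Itpkb-/-) minus log2(WT) of the value plus 1, fitted with limma over all genes that passed the filter. A gene is said to have risen or fallen where its adjusted p was 0.15 or less, which is the series' own false discovery limit. The study's further limits, a fold of 1.4 and a mean log2 value of 4, were not required. Ulk1 and Rbl2, called below, do not reach that fold. The libraries held 4024203 to 7470329 reads, and the Foxo genes and targets 3 to 5560 reads each in a library. Itpkb stood at 10.2, 14.0 and 18.2 normalized CPM in Itpkb-/- against 22.1, 23.6 and 25.1 in WT (log2 difference -0.73, limma, adjusted p = 0.172, and 0.0541 with the replicate block). A point mutation need not remove the transcript, so this level is only a partial check of the labels.

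Stem cell markers were present in every library. Kit ranged from 615 to 879 normalized CPM in Itpkb-/- and from 834 to 911 in WT libraries, and Hlf from 401 to 548 and from 775 to 1071. The summed level of the 12 stem cell markers was 2252 to 3034 normalized CPM in Itpkb-/- against 3549 to 4189 in WT libraries, and 5 of the 12 fell. Itpkb-/- library 2 stood apart in 5 granulocyte progenitor markers, with a sum of 12018 normalized CPM and Mpo at 8728, against sums of 251 and 982 in the other Itpkb-/- libraries and 239.6 to 1199.5 in WT. The sum of 8 neutrophil markers, led by S100a9, was 715 to 6694 in Itpkb-/- and 505 to 3356 in WT libraries. None of these 13 myeloid markers passed with limma, and all rose with the replicate block described below. The 9 megakaryocyte markers, of which Pf4 was the most abundant, summed to 1172 to 2189 in Itpkb-/- and 895 to 1056 in WT libraries, and 4 of them (Itga2b, Gp1ba, Selp and Plek) rose. The 5 multipotent progenitor markers summed to 499 to 769 and 249 to 336, and 2 of them, Plac8 and Cd53, rose, while the most abundant, Cd34, was at 204 to 220.2 and 172 to 204. The 8 erythroid markers, led by Car1, summed to 193 to 724 and 179 to 390.4, and 2 (Epor and Tfrc) rose. Lymphoid markers summed to 33.3 to 43.4 and 32.6 to 44.0, most of it Cd79b at 30.01 to 32.8 and 28.2 to 34.8, with Pax5 at 0 in every library. Macrophage and dendritic markers summed to 98.7 to 153 and 80.2 to 87.3, mostly Cd74. Stromal and endothelial markers summed to 61.9 to 87.2 and 50.2 to 62.4, mostly Pecam1, with Lepr and Col3a1 at 0. The 12 early response genes, which cell handling can induce, summed to 345 to 543 in Itpkb-/- and 489.8 to 735 in WT libraries. With limma 2 of them rose and 1, the most abundant gene Jun, fell, and with the block 2 rose and 6 fell. The part of any of these cells or of handling in the differences below was not tested, and in pooled RNA fewer cells of a type and less RNA per cell cannot be told apart.

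Among the 30 genes, 4 fell in Itpkb-/- LT-HSC and none rose. The mean of Txnip, which binds thioredoxin and restrains glucose uptake, fell by 42.8%, and that of Gabarapl1, which sits on the autophagosome membrane, fell by 35.3%. Ulk1, the kinase that starts autophagy, fell by 27.9%, and Rbl2, which encodes the pocket protein p130 of quiescent cells, fell by 26.5%. The 4 genes that fell are 13.3% of the 30, where 3.24% of all genes tested fell, 2.27% rose and 5.5% were called in either direction. The 30 genes were chosen with earlier results of these data known. Their shares, here and below, therefore describe the list and are no independent support. The edgeR quasi-likelihood test and DESeq2, both on recovered reads, each called 5 as lower and none as higher, the fifth being Foxo1. In the edgeR test 6.02% of all genes were called, 3.58% lower and 2.45% higher. DESeq2 called 883 of the 15599 genes with a read, 463 lower and 420 higher. Some of these genes received no adjusted p there, so this gives no share of the genes tested. With the limit at 0.05, limma and edgeR called none of the 30 and DESeq2 called 2. With limma 8 had an unadjusted p under 0.05, all lower. No share of all genes is given for an unadjusted p under 0.05, here or below. Such counts can thus not be set against all genes.

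Libraries with the same number deviated together across genes, and with the replicate number as a block 8 of the 30 fell and 1 rose. Foxo1, Foxo3, Sesn1 and Sesn3 joined those that fell, and Cited2 was the gene that rose. These are 9 of 30, where 18.1% of all genes tested were called in that fit. The 8 that fell are 26.7%, against 8.97% of all genes, and the 1 that rose 3.33%, against 9.15%. The limit from the choice of genes holds for these shares too. Over all 30 genes, 21 log2 differences were negative and the median was -0.15, where the median over all genes tested was 0.0018. All Itpkb-/- libraries lay below all WT libraries in 8 of the 30 genes (26.7%, against 11.3% of all genes) and above them in 1 (3.33%, against 10%).

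**Figure D1:**
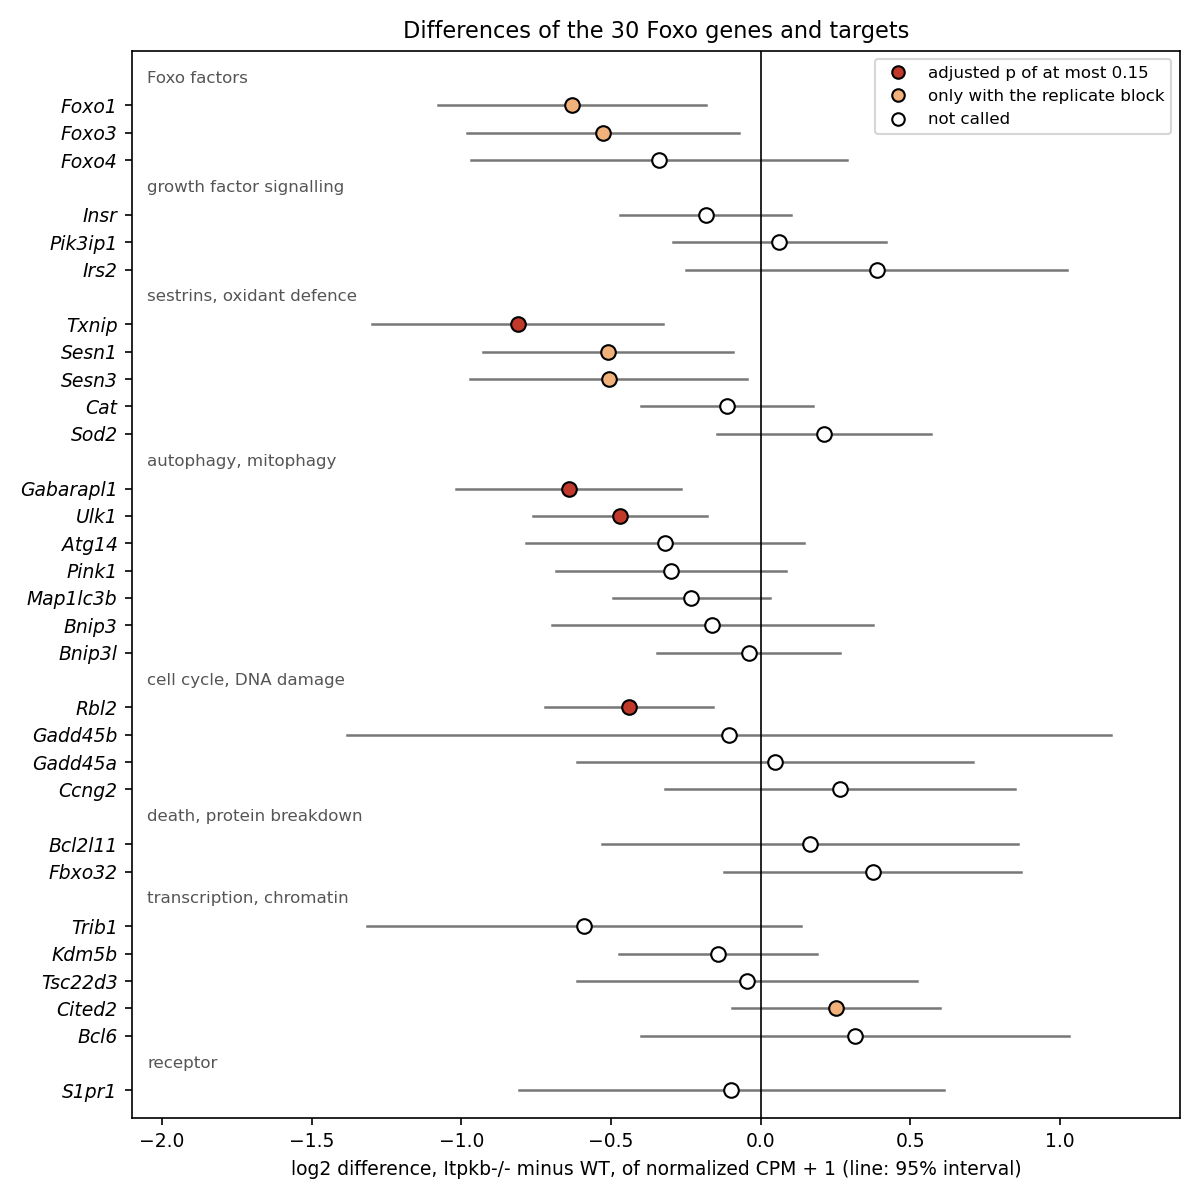
Log2 difference (horizontal axis, Itpkb-/- minus WT, normalized CPM + 1, 3 libraries each) of each of the 30 genes, grouped by role, with its 95% interval from limma as a line. Filled red circles mark the 4 genes with an adjusted p up to 0.15, orange circles the 5 called with the replicate block only. All 7 autophagy and mitophagy genes lie left of 0, and 2 of them are filled red.

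The calls rested on every library in part. Without Itpkb-/- library 2, WT library 2 or WT library 3 limma called none of the 30 (6, 8 and 7 had an unadjusted p under 0.05), without WT library 1 it called 1, without Itpkb-/- library 3 it called 3, and without Itpkb-/- library 1 it called 6. The count over all genes ranged from 64 to 839 in the same 6 fits, against 661 with every library.

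Promoter sequence was examined because Foxo proteins bind a short core whose letters can be searched for. RefSeq (GRCm38.p6) windows from 250 bases before to 50 bases after the annotated start were matched by symbol for 24 of the 30 genes, in 29 windows, and not for Foxo4, S1pr1, Insr, Fbxo32, Bnip3l and Trib1. The core GTAAACA, searched on both strands, was in the windows of Txnip, Bcl2l11 and Sesn1, and in 3.65% of all 32851 windows. The variant ATAAACA, which differs in its first letter so that the searches never share a match, was in those of Gabarapl1 and Kdm5b, and in 4.6% of all windows. One or the other was in 5 of the 29 windows and in 7.97% of all. The 250 bases before the start are shown for Txnip (chr3:96557707-96557956, plus strand) and Gabarapl1 (chr6:129532942-129533191, plus strand), which fell, and for Bcl2l11 (chr2:128125788-128126037, plus strand), which holds the same core as Txnip and was not called. For Sesn1 the site alone is shown (chr10:41810585-41810612, plus strand), since it lies after the start. Capitals mark the core, which in Sesn1 reads TGTTTAC because it is on the other strand.
Txnip: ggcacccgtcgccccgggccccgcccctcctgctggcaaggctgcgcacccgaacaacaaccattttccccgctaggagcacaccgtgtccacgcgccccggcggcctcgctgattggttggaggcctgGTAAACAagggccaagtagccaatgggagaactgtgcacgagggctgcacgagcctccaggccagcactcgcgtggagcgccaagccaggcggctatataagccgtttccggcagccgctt
Gabarapl1: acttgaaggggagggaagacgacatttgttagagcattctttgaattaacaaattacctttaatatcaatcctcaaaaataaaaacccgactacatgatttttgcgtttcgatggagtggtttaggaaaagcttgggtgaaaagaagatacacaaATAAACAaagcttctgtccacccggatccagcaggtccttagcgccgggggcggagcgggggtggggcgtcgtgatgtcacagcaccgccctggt
Bcl2l11: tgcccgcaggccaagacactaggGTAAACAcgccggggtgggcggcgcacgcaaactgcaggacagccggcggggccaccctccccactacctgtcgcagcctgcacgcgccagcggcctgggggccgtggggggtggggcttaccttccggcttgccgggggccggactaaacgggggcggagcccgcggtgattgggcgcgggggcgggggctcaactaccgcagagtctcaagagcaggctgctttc
Sesn1: gaaccttctacTGTTTACcagccttttg
Counted from the start, the first letter of the core is at -121 in Txnip, -95 in Gabarapl1, -227 in Bcl2l11 and 23 in Sesn1. Ulk1 and Rbl2, which also fell, hold neither core in these windows. The Txnip promoter is also known for carbohydrate response elements, and the letters CACGAG, searched on both strands and found in 6.47% of all windows, begin at -85 and at -74 there. The same letters are at -124 in the window of Ulk1, which fell, and at 2 in that of Foxo3. A match is only a match of letters, and genes with and without one were among those that fell.

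Foxo3 was the most abundant of the Foxo factors in WT cells per length of exon, at 30.5 normalized CPM per kb (25.2 to 34.3 over the libraries). Foxo1 was at 8.13 (6.78 to 10.4), below every Foxo3 library, and the mean of Foxo4 was 5.57 per kb. Foxo1 was at 52.1, 35.7 and 46.9 normalized CPM in Itpkb-/- replicates 1, 2 and 3 against 89.8, 58.7 and 62.9 in WT. Every Itpkb-/- library lay below every WT library, and WT library 1 was the highest. The means were 44.9 ± 8.34 and 70.5 ± 16.8 (SD, n = 3 each), which differed on the log2 scale by -0.63 (SE 0.20, 95% interval -1.08 to -0.18). Foxo1 just missed the limit in limma (adjusted p = 0.162) but was within it using the block (0.0135), edgeR (0.141) and DESeq2 (0.101), in a range of 0.0135 to 0.427 over 16 alternatives. It was called in only 4 of these 16, also in limma without Itpkb-/- library 1 (0.115), and not with limma-voom (0.178).

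Foxo3, the factor most tied to LT-HSC maintenance in the mouse, was at 225, 129 and 138 normalized CPM in Itpkb-/- against 259.6, 191 and 242 in WT. Itpkb-/- library 1 lay among the WT libraries and the other 2 below them. The means were 164 ± 53.4 and 231 ± 35.9 (SD, n = 3 each), with a log2 difference of -0.53 (SE 0.21). It did not pass with limma (adjusted p = 0.249), passed with the block (0.0121) and without Itpkb-/- library 1 (0.0413), and reached 0.553 without Itpkb-/- library 2. Foxo4 overlapped between the genotypes, at 9.58, 16.8 and 20.8 in Itpkb-/- and 18.2, 17.3 and 22.7 in WT libraries, with an interval of -0.97 to 0.29 for its log2 difference of -0.34. All 3 Foxo genes were lower in each Itpkb-/- library than in the WT library of the same number.

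**Figure D2:**
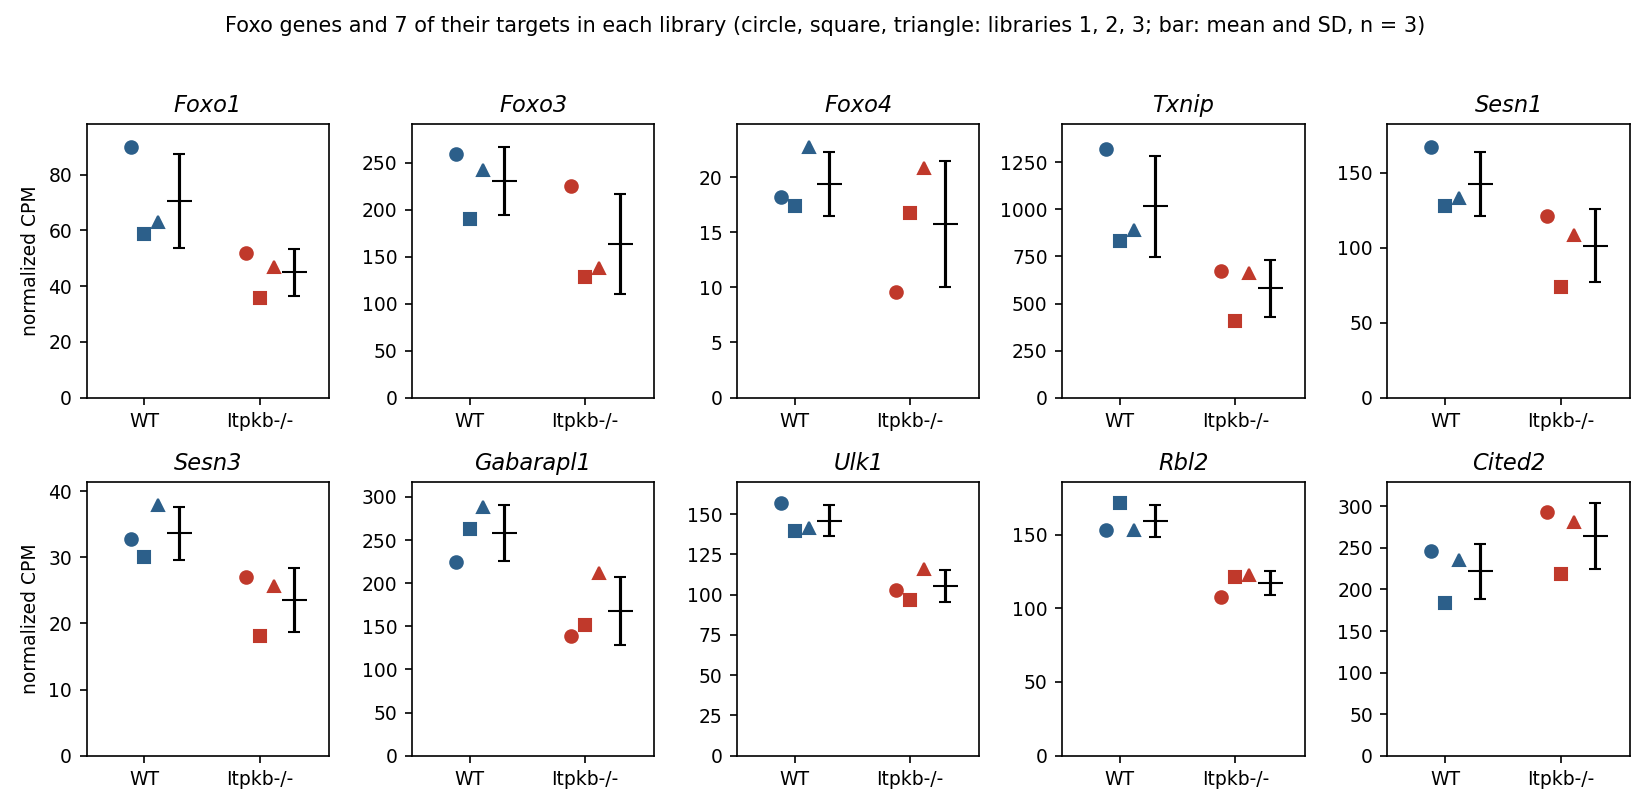
Normalized CPM (vertical axes, from 0) of Foxo1, Foxo3, Foxo4 and 7 targets in each of the 3 WT (blue) and 3 Itpkb-/- (red) libraries; circles, squares and triangles are libraries 1, 2 and 3, and the bars give mean and SD. The genotypes do not overlap for Foxo1, Txnip, Sesn1, Sesn3, Gabarapl1, Ulk1 and Rbl2, and overlap for Foxo3, Foxo4 and Cited2.

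Txnip, placed with the genes of oxidant defence by the grouping of the list only, was the most abundant of all 30 per length. Its level was 325 normalized CPM per kb in WT and 186 in Itpkb-/- cells. It was at 674, 405 and 664 normalized CPM in Itpkb-/- against 1324, 831 and 893 in WT. The highest Itpkb-/- library was below the lowest WT library, and library 1 was the highest in both genotypes. The means were 581 ± 153 and 1016 ± 268 (SD, n = 3 each), which differed on the log2 scale by -0.81 (SE 0.22, 95% interval -1.30 to -0.33). It fell with limma (adjusted p = 0.107) and with the block (0.000443). The call was lost without Itpkb-/- library 2 (adjusted p = 0.261) and without WT library 1 (0.296), 2 (0.160) or 3 (0.277), and the log2 difference stayed between -0.57 and -0.94. Txnip (chromosome 3, 96557957 to 96561883, plus strand, mm10) shares 19.4% of its exon bases with the antisense gene Gm15441, which was at 1.09 to 6.73 normalized CPM; the library kit does not mark strand, so their shared reads cannot be told apart.

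The sestrins, stress-induced proteins that lower oxidants and restrain mTORC1, were both lower without overlap. Sesn1 was at 121, 74.0 and 108 normalized CPM in Itpkb-/- against 167, 128 and 133 in WT libraries, means of 101 ± 24.4 and 143 ± 21.4 (SD, n = 3 each). Its log2 difference was -0.51 (SE 0.19; limma, adjusted p = 0.222; with the block 0.0173). Sesn3 was at 27.01, 18.03 and 25.7 in Itpkb-/- and 32.8, 30.04 and 38.0 in WT libraries, also with a log2 difference of -0.51 (SE 0.21; limma, adjusted p = 0.277; with the block 0.106). In both genes Itpkb-/- library 2 was the lowest, and without it their differences were -0.30 and -0.33. Sod2 and Cat, the enzymes among the 30 genes that remove superoxide and hydrogen peroxide, overlapped between genotypes. Sod2, the mitochondrial superoxide dismutase, ranged from 64.0 to 83.9 normalized CPM in Itpkb-/- and from 58.7 to 74.1 in WT libraries, and its 95% interval was -0.15 to 0.57. Cat, catalase, ranged from 163 to 204 and from 191 to 214, with an interval of -0.40 to 0.17. These intervals exclude a fall of the size fitted for Txnip.

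All 7 genes of autophagy and mitophagy had negative log2 differences, from -0.64 to -0.04, and 2 fell. Of all genes tested, 49.8% had a negative difference. The autophagy genes among the further targets treated below went both ways, from -0.45 for Tfeb to 0.19 for Becn1. None of those was called with limma. Gabarapl1, a partner of LC3 on the autophagosome, was at 138, 151 and 212 normalized CPM in Itpkb-/- against 224, 262 and 289 in WT libraries. The groups were close but did not overlap, and in both genotypes library 3 was the highest. The means were 167 ± 39.4 and 258 ± 32.3 (SD, n = 3 each), which differed on the log2 scale by -0.64 (SE 0.17; limma, adjusted p = 0.102; with the block 0.00144). The call was lost without Itpkb-/- library 2 (0.245), WT library 2 (0.234) or WT library 3 (0.371), all limma. Gabarapl1 (chromosome 6, 129533160 to 129542346, plus strand) shares 28.3% of its exon bases with the antisense gene 1700101I11Rik, which was at 0.186 to 1.05 normalized CPM.

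Ulk1 (chromosome 5, 110784488 to 110810097, minus strand) was at 103, 96.5 and 116 normalized CPM in Itpkb-/- against 157, 139 and 141 in WT libraries. The gap between the groups was wider than the range within either. Its means of 105 ± 9.92 and 146 ± 9.69 (SD, n = 3 each) gave a log2 difference of -0.47 (SE 0.13; limma, adjusted p = 0.116; with the block 0.0188). The call was lost without Itpkb-/- library 2 (0.302) or WT library 1 (0.301), 2 (0.220) or 3 (0.341).

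Map1lc3b, which encodes LC3B, was at 177 to 204 normalized CPM in Itpkb-/- against 223 to 235 in WT libraries, without overlap but with a small log2 difference of -0.23 (95% interval -0.49 to 0.03; limma, adjusted p = 0.387). Atg14, a subunit of the lipid kinase that nucleates autophagosomes, had -0.32 (-0.78 to 0.15) and Pink1, the kinase that marks damaged mitochondria, -0.30 (-0.69 to 0.08). The mitophagy receptors Bnip3 and Bnip3l had -0.16 (-0.70 to 0.37) and -0.04 (-0.34 to 0.26). The abundant Bnip3l, at 235 to 313 normalized CPM in Itpkb-/- against 255 to 275 in WT libraries, thus overlapped, and its interval excludes a fall as large as that fitted for Gabarapl1 or Ulk1.

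Of 4 genes of the cell cycle and DNA damage, Rbl2 fell. It was at 108, 121 and 123 normalized CPM in Itpkb-/- against 153, 172 and 153 in WT libraries, means of 117 ± 8.32 and 159 ± 10.7 (SD, n = 3 each). The log2 difference was -0.44 (SE 0.13; limma, adjusted p = 0.124; with the block 0.0195). The groups were well apart, and the call was lost whichever library was left out: the adjusted p was 0.160, 0.226 and 0.154 without Itpkb-/- library 1, 2 or 3 and 0.237, 0.315 and 0.341 without WT library 1, 2 or 3. Rbl2 (chromosome 8, 91070057 to 91123844, plus strand) shares 9.17% of its exon bases with the antisense gene Aktip, itself at 4.57 to 10.7 normalized CPM in Itpkb-/- against 14.1 to 19.6 in WT libraries, and a further 11.8% with the antisense gene Gm45464, for which no level is given here.

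Ccng2, an atypical cyclin of arrested cells, was at 34.2, 23.0 and 23.9 normalized CPM in Itpkb-/- against 32.3, 18.4 and 17.7 in WT libraries, higher by 0.27 (95% interval -0.32 to 0.85). Here library 1 was the highest in both genotypes and the groups overlapped. The stress sensors Gadd45a and Gadd45b were low, at 5.37 to 8.39 and 5.47 to 8.75 normalized CPM for Gadd45a. Gadd45b was at 0.653, 9.95 and 2.88 in Itpkb-/- libraries, the first of which is 3 reads, so no difference was detectable at this depth (interval -1.38 to 1.17).

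None of the 3 genes that feed back on growth factor signalling passed the test. Insr, the insulin receptor, was at 121 to 140 normalized CPM in Itpkb-/- against 134 to 159 in WT libraries (log2 difference -0.18, 95% interval -0.47 to 0.10). Pik3ip1, an inhibitor of PI3-kinase, was at 72.7 to 93.2 and 65.6 to 86.5 (0.06, -0.29 to 0.42). Irs2, the insulin receptor substrate that Foxo factors induce in liver, was at 22.4, 21.6 and 10.7 in Itpkb-/- and 13.2, 12.3 and 13.8 in WT libraries. Itpkb-/- libraries 1 and 2 were above all WT libraries and library 3 below them, which left an interval of -0.25 to 1.02.

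The genes of cell death and protein breakdown were not lower in the mean. Bcl2l11, which encodes the death protein Bim, was at 57.1, 21.6 and 25.4 normalized CPM in Itpkb-/- against 31.3, 23.0 and 30.7 in WT libraries. Its positive log2 difference of 0.16 came with the single high value of Itpkb-/- library 1, and without that library it was -0.25. Fbxo32, which encodes the muscle ubiquitin ligase subunit atrogin, was at 21.6, 15.2 and 18.7 in Itpkb-/- and 13.2, 13.9 and 14.7 in WT libraries. It was the one gene whose Itpkb-/- libraries all lay above WT, by 0.37 (95% interval -0.12 to 0.87; limma, adjusted p = 0.465).

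Among regulators of transcription, Cited2, a coregulator needed for mouse HSC maintenance, was at 293, 218 and 281 normalized CPM in Itpkb-/- against 246, 184 and 235 in WT libraries. The groups overlapped, yet the log2 differences between same-numbered libraries were 0.25, 0.25 and 0.26. It did not pass with limma (log2 difference 0.25, adjusted p = 0.491) and rose with the block (0.109). Bcl6, a repressor, was at 15.9, 19.1 and 7.47 in Itpkb-/- and 11.2, 9.71 and 10.4 in WT libraries, with the same order of libraries around WT as Irs2, 1 and 2 above and 3 below. Trib1, a pseudokinase, had a log2 difference of -0.59 with a wide interval (-1.32 to 0.13) at 4.85 to 7.62 and 5.96 to 12.7 normalized CPM.

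Kdm5b, a histone demethylase, was at 133 to 182 normalized CPM in Itpkb-/- against 152.8 to 180.3 in WT libraries, with an interval of -0.47 to 0.19. Tsc22d3, also a glucocorticoid-induced gene, was at 71.9, 46.0 and 76.8 in Itpkb-/- and 89.5, 45.0 and 69.4 in WT libraries. S1pr1, the sphingosine phosphate receptor that guides blood cells between tissue and blood, was at 41.6, 21.0 and 20.8 and at 42.5, 19.4 and 27.2. Both genes followed library number: library 2 was lowest in both genotypes for Tsc22d3, and library 1 highest in both for S1pr1.

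The same dependence on library number ran through the list. Among Itpkb-/- libraries, library 1 held the highest value of 17 of the 30 genes and library 2 the lowest of 19, and among WT libraries, library 1 held the highest of 16 and library 2 the lowest of 17. The median log2 difference of the 30 genes was -0.19, -0.18 and -0.27 between libraries numbered 1, 2 and 3, with 18, 18 and 23 genes lower. Over all genes tested these medians were 0.0098, -0.0021 and -0.0026. In 13 of the 30 genes all 3 differences were negative, in 4 (Sod2, Ccng2, Fbxo32 and Cited2) all 3 were positive, and in 13 they were mixed. No share of all genes is given for the counts in this paragraph, so they cannot be set against all genes. Standard errors ran from 0.12 for Map1lc3b to 0.58 for Gadd45b, so small changes of the low genes could not be seen.

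**Figure D3:**
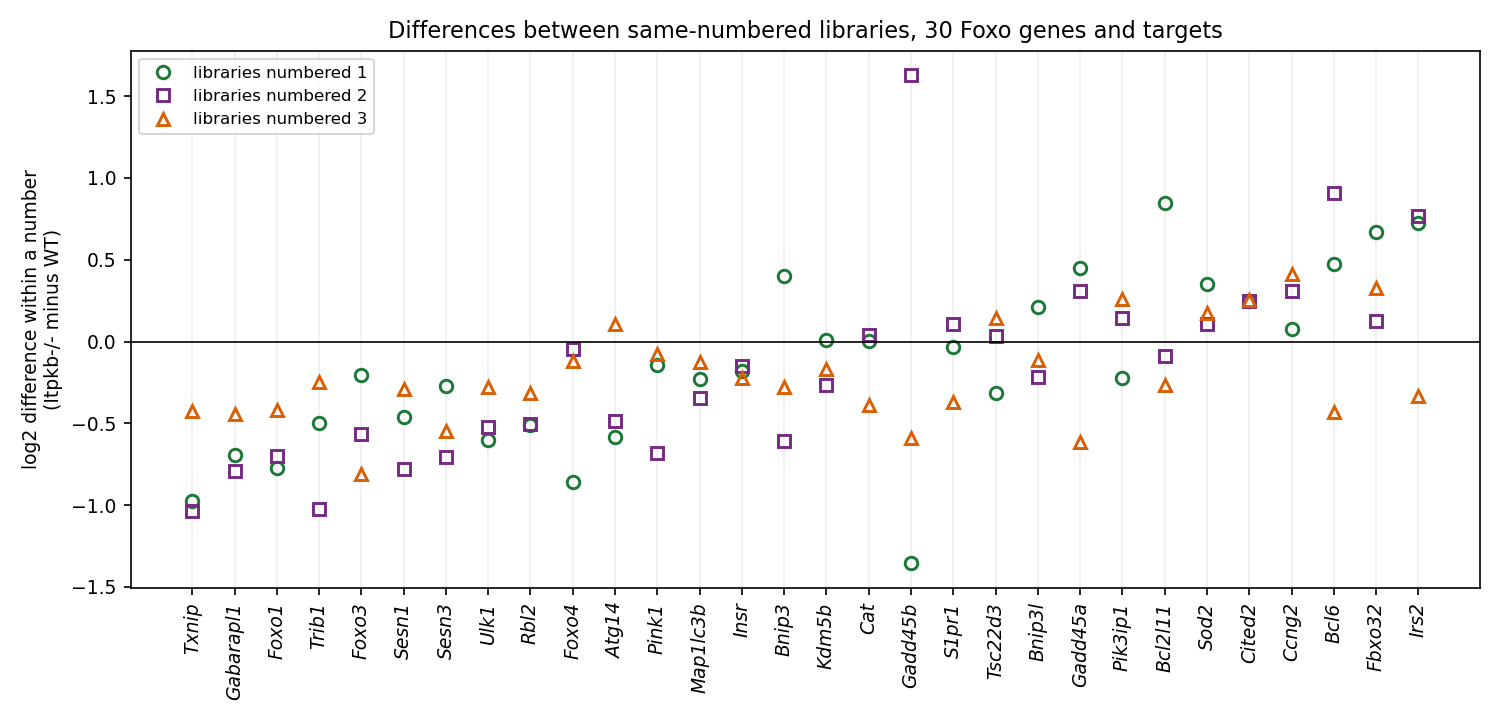
Log2 difference (vertical axis, Itpkb-/- minus WT) between libraries of the same number for each of the 30 genes, ordered by the mean difference; circles, squares and triangles are numbers 1, 2 and 3. For Txnip, Gabarapl1, Foxo1, Ulk1 and Rbl2 all 3 lie below 0, for Cited2 they coincide near 0.25, and for Gadd45b they spread from -1.36 to 1.63.

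Regulators upstream of Foxo factors were examined as 42 further genes, and 1 rose and none fell (limma; 2 higher and 2 lower at an unadjusted p under 0.05; edgeR and DESeq2 also called 1). The 1 that rose is 2.38% of the list, against 2.27% of all genes tested, and 3.24% of all genes fell, so the list's count is near the background. Pik3cb, which encodes the p110 beta catalytic subunit of PI3-kinase, was at 47.5, 46.9 and 40.4 normalized CPM in Itpkb-/- against 29.8, 29.6 and 23.3 in WT libraries. The gap between the groups was wider than the range within either, with means of 44.9 ± 3.96 and 27.6 ± 3.72 (SD, n = 3 each) and a log2 difference of 0.69 (SE 0.18; limma, adjusted p = 0.0969; with the block 0.0182). It kept its call in 2 of the 6 fits without 1 library, where the adjusted p reached 0.350. The catalytic subunit genes Pik3ca and Pik3cd had log2 differences of -0.12 and -0.12.

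None of the genes of kinases that phosphorylate Foxo proteins passed with limma. Akt1 was at 132 ± 6.38 normalized CPM in Itpkb-/- against 136 ± 13.6 in WT cells (SD, n = 3 each), which differed on the log2 scale by -0.04 (95% interval -0.32 to 0.25), and Akt2 had 0.03 (-0.25 to 0.31). Sgk1, a kinase that also phosphorylates Foxo proteins, had 0.23 (-0.53 to 0.99). These are transcript levels and say nothing of kinase activity. With the block 3 regulators rose, adding Ywhah, a scaffold that binds phosphorylated Foxo, and Usp7, a deubiquitinase of Foxo, and 2 fell, Phlpp1, a phosphatase of Akt, and Prkaa2, an AMP-activated kinase subunit. These 5 are 11.9% of the 42 against 18.1% of all genes in that fit.

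Of 39 further genes described as Foxo targets (Rictor is also among the regulators) 32 passed the filter, and 4 fell and 2 rose, 18.8% against 5.5% of all genes. This list too was chosen with earlier results of these data known, so its shares are no independent support. The further targets moved in both directions, with a median log2 difference of 0.01. Cdkn1c, the inhibitor p57 that keeps mouse HSC quiescent, fell from 23.7 ± 6.15 to 6.83 ± 2.74 normalized CPM (SD, n = 3 each; log2 difference -1.70; limma, adjusted p = 0.0320). Ppargc1a, the mitochondrial coactivator, was at 0.436, 1.09 and 3.54 in Itpkb-/- and 11.2, 5.68 and 6.33 in WT libraries (-1.82; limma, adjusted p = 0.0817). The D cyclin genes Ccnd1 and Ccnd2, which Foxo factors are known to repress, fell by 0.83 and 0.48 on the log2 scale. Cdkn1a, the inhibitor p21, rose by 1.23 on the same scale. Over the 6 fits without 1 library, Cdkn1c kept its call in 5, Ccnd1 in 3, and Cdkn1a, Ccnd2 and Ppargc1a in 2.

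Cdkn1b, the inhibitor p27 and a classical Foxo target, had a log2 difference of -0.23 (95% interval -0.74 to 0.29). Klf2, a Foxo1 target of mouse lymphocytes, was near the detection floor, at 1.65 and 1.42 normalized CPM in the means. The third sestrin, Sesn2, was at 8.06, 7.30 and 11.1 in Itpkb-/- and 22.4, 13.9 and 12.1 in WT libraries, without overlap (-0.77; limma, adjusted p = 0.230; with the block 0.109). The liver and muscle targets Pck1, G6pc and Trim63 and the death ligand gene Fasl were listed at 0 in every library. With the block 6 of the 32 fell (18.8%, against 8.97% of all genes) and 4 rose (12.5%, against 9.15%, a share near the background). Without 1 library the limma count of 6 became 1 (without Itpkb-/- library 2), 3, 2 and 0 (without WT library 1, 2 and 3), and 8 had an unadjusted p under 0.05 in the last.

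**Figure D4:**
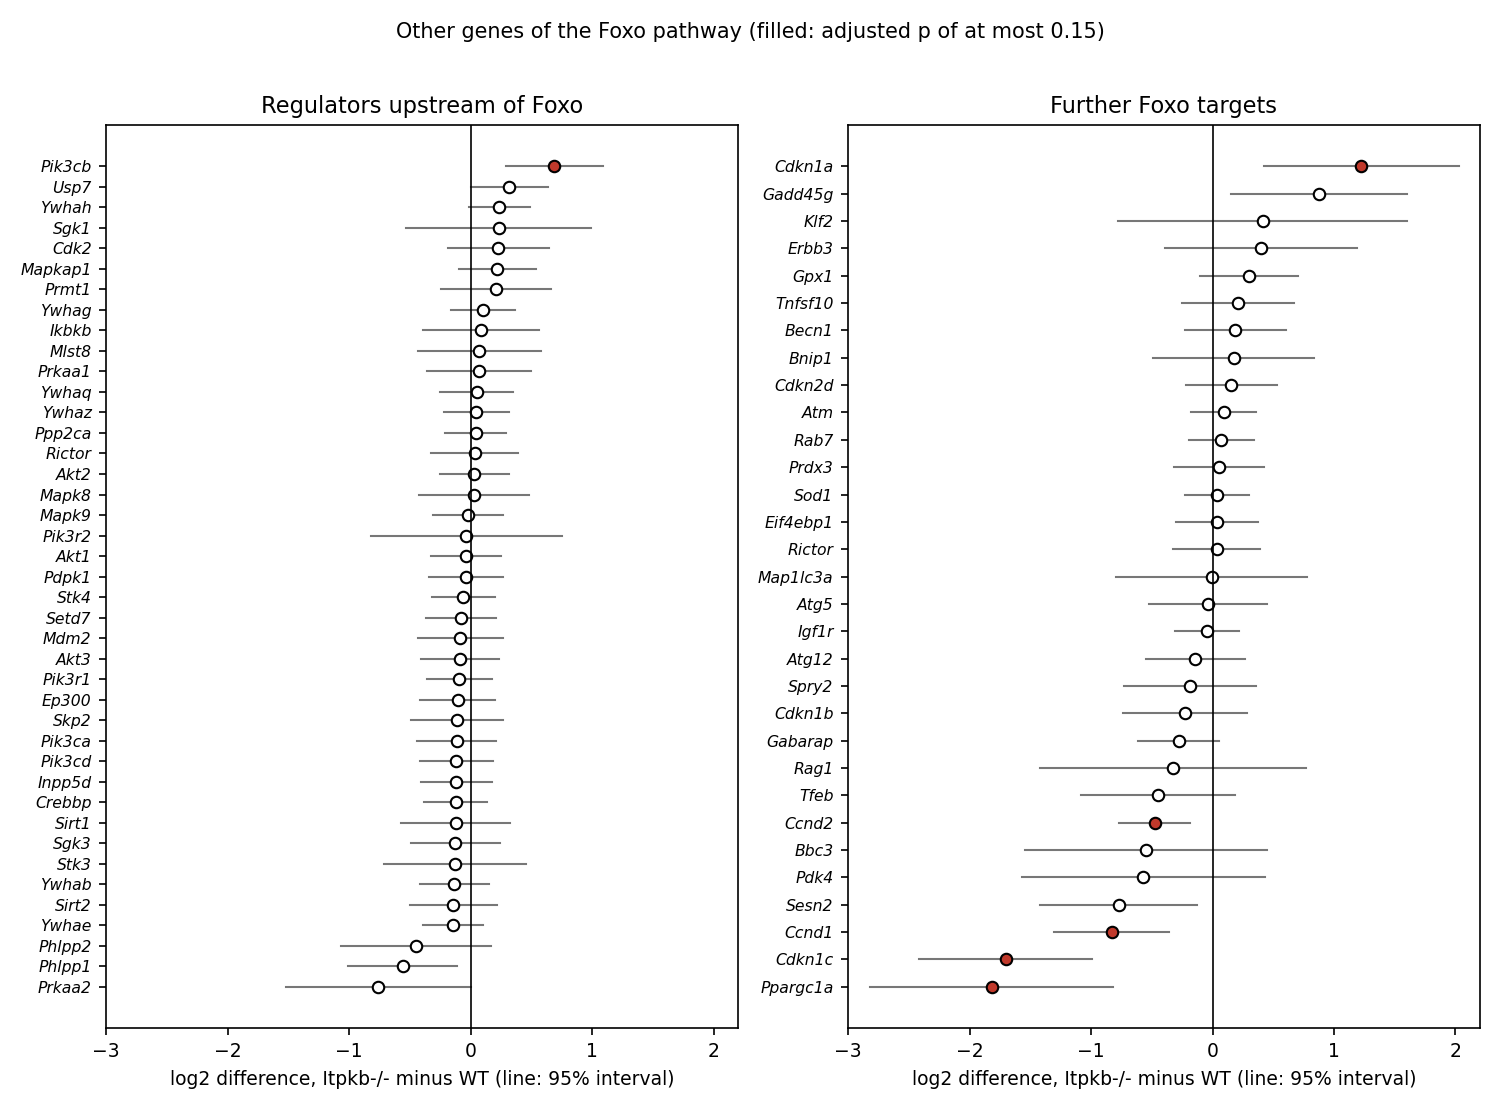
Log2 difference (horizontal axes, Itpkb-/- minus WT, with 95% intervals from limma, 3 libraries each) of regulators upstream of Foxo (left) and of further targets that passed the filter (right), for the genes reported here. Filled circles mark an adjusted p up to 0.15: Pik3cb on the left, and Cdkn1a, Ccnd2, Ccnd1, Cdkn1c and Ppargc1a on the right.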

How the data were processed

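RNA of 6 pools of sorted LT-HSC, at an input of 1 to 5 ng, was amplified with the NuGEN Ovation kit, per the labels' protocols. CASAVA 1.8.2, cutadapt, TopHat2 2.0.8b, mm10, Partek and edgeR are named in the submitters' processing notes, without their order; the series design text gives TopHat 1.4.1 instead. The authors deposited a signal on the CPM scale, gene counts divided by 1 factor per library. All values (100%) lay within 0.01 of a whole number of reads, 1 read being worth 0.131 to 0.249 normalized CPM, so whole reads were recovered.

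The 12008 genes that reached a value of 1 in 3 or more libraries were tested with limma 3.58.1 (R 4.3.3, trended variance) on log2(value + 1), a scale that understates changes where levels are low. Adjustment followed Benjamini and Hochberg over all of them. Alternatives were edgeR 4.0.16 (quasi-likelihood) and DESeq2 1.42.0 on the recovered reads, limma-voom, other pseudocounts, filters and size factors, and each library left out. The limma test was tested on simulated data, which held no effect of library number and so differ from these libraries in that. Reads carry no molecular identifiers, so the floor of 3 reads covers counting error only. Library pairs within a genotype differed beyond sampling noise (chi-square per degree of freedom 6.1 to 26.7).

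Deviations from the genotype means gave correlations across genes of 0.296, 0.268 and 0.284 where library numbers matched. The numbers were therefore treated as pairs, although no label says what they stand for. Where numbers did not match, the correlations were no more than -0.0475. Subtracting the genotype means makes these negative on average once the matched ones are positive, so they are no separate evidence of pairs. Positions and exon lengths are from GENCODE M21 (mm10).

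The members and lists were chosen with earlier results of these data known. All 30 members are given. Of the pathway lists the called genes are named, and Akt1, Akt2, Sgk1, Cdkn1b and Klf2; a few listed genes enter the counts but are not reported here. Of each marker list the most abundant gene is named. Pik3ca, Pik3cd, Sesn2, Tfeb, Becn1, other marker genes, the genes called with the block and those at 0 were chosen after their values were seen.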

Additional observations from a re-analysis of the deposited data

How the results depend on the processing

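The median log2 difference of the 30 genes stayed negative, between -0.13 and -0.25, under the alternatives run. With the replicate block limma called 2176 genes, 9 of the 30 Foxo genes and targets, 5 upstream regulators and 10 further targets. Without 1 library the counts ran from 64 to 839, 0 to 6, 0 to 2 and 0 to 6, and without both libraries numbered 2, an alternative chosen after seeing the data, they were 128, 0, 0 and 1 (6, 1 and 5 of the last 3 lists had an unadjusted p under 0.05). Fewer samples enter these fits. At an adjusted p of at most 0.05 limma called 182, 0, 0 and 1, and edgeR 0, 0 and 1 of the 3 lists. With the study's limits on fold and level added the counts were 386 genes, 2 of the 30 and 2 further targets, without a filter on low values 2 of the 30 and 3 further targets, and with the level limit applied before testing 386 genes and 3 further targets; more or fewer genes are tested there. Txnip and Gabarapl1 were the genes lost without the filter (adjusted p = 0.183 and 0.153). Under the study's limits the genes lost were Ulk1 and Rbl2, whose log2 differences of -0.47 and -0.44 are smaller than a fold of 1.4. Sign changes touched 8 uncalled genes: without 1 library the log2 difference ran from -0.052 to 0.15 for Pik3ip1, -0.18 to 0.030 for Bnip3l, -0.088 to 0.22 for Gadd45a, -0.81 to 0.55 for Gadd45b, -0.25 to 0.43 for Bcl2l11, -0.31 to 0.18 for Tsc22d3 and -0.42 to 0.19 for S1pr1. Without both libraries numbered 2 it was 0.061 for Bnip3, 0.049 for Bnip3l and -0.081 for Gadd45a. Gadd45a was at -0.0088 with limma-voom, and Gadd45b at 0.36 with edgeR and 0.36 with DESeq2. The cause was not tested. Gene by gene, 422 of the values under alternatives kept direction and side of the limit, 23 lost the call, 10 gained it and 21 changed sign. The lost calls are all among the 4 genes called with limma. Of 16 alternatives each, Txnip kept its call in 10, Gabarapl1 and Ulk1 in 11 and Rbl2 in 9. The block changed no other call among the 30 genes than the 5 named.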
